A study of Saccharomyces cerevisiae with 4 samples.

Results

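Transcript levels of 10 genes of zinc uptake, zinc storage and the zinc-responsive regulator Zap1 were compared between Sen1ΔN and wild-type cells of the budding yeast Saccharomyces cerevisiae. The 10 genes were taken from a list of zinc transporters and Zap1-regulated genes, and all 10 were measured among the 5449 yeast genes on the array, each by 1 probe set. Total RNA was hybridized to Affymetrix yeast arrays, with 2 arrays of Sen1ΔN and 2 of the wild type, each from an independent experiment. The Sen1ΔN strain is MATα and makes a form of the RNA and DNA helicase Sen1 without part of its N terminus, with the sen1 allele written as leu2-_delta_1::sen1-2. It also carries lys2-801 and ade2-101 together with his3-200, ura3-52 and the tryptophan marker trp1-_delta_1. The wild-type strain, BY4741, is MATa, with the alleles ura3_delta_0, met15_delta_0, leu2_delta_0 and his3_delta_1. Both strains carry mutant HIS3, LEU2 and URA3 alleles, and they differ in mating type and in other markers as well as in SEN1, so an effect of Sen1 and an effect of strain background cannot be told apart. All cultures grew in synthetic complete medium with 2% glucose at 24 °C, were started at an OD600 of 0.4 and were harvested in exponential phase at 1.5. The labels name no zinc limitation or zinc addition.

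Zap1 is a transcriptional activator that is active when zinc is scarce. It switches on genes of zinc uptake at the plasma membrane and of zinc release from the vacuole, as well as its own gene. Zinc lowers its activity. ZRT1 and ZRT2 encode the high-affinity and low-affinity zinc transporters of the cell surface, ZRT3 encodes the vacuolar zinc exporter, and ZRC1 and COT1 encode the transporters that move zinc into the vacuole.

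Of the 10 zinc genes, 5 fell in Sen1ΔN, none rose, and 5 did not pass the test. The regulator gene ZAP1 and the alcohol dehydrogenase gene ADH4 fell about 3-fold, while IZH2, ZRT3 and IZH1 fell by less than 2-fold. The uptake genes ZRT1 and ZRT2, the vacuolar import genes ZRC1 and COT1, and ZPS1 did not pass. The test was limma on log2 signal, Sen1ΔN minus wild type, called at a Benjamini-Hochberg adjusted p under 0.05 over all 5449 genes. By this rule 69.7% of all genes were called, 35.3% higher and 34.4% lower, so the share of zinc genes called (5 of 10) was not above that of the whole table. At least 2-fold falls were found in 2 of the 10 genes, against 11.3% of all genes, and at least 2-fold rises in 0, against 8.63% of all genes. The median difference of the 10 genes was -0.30 log2, with 9 of 10 differences below 0, and over all genes the median was 0.01, with 49.1% below 0. With the gene-length trend removed, the median of the 10 was -0.18, against 0.05 over all genes, and 6 of 10 differences lay below 0. The unmoderated linear model called 2 of the 10, ADH4 and IZH2. The count was 4 with the replicate number as a block and 4 with the length trend removed. Quantile normalization called 6 of the 10, 1 of them higher, and trended and robust moderation called 7, all lower.

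**Figure D1:**
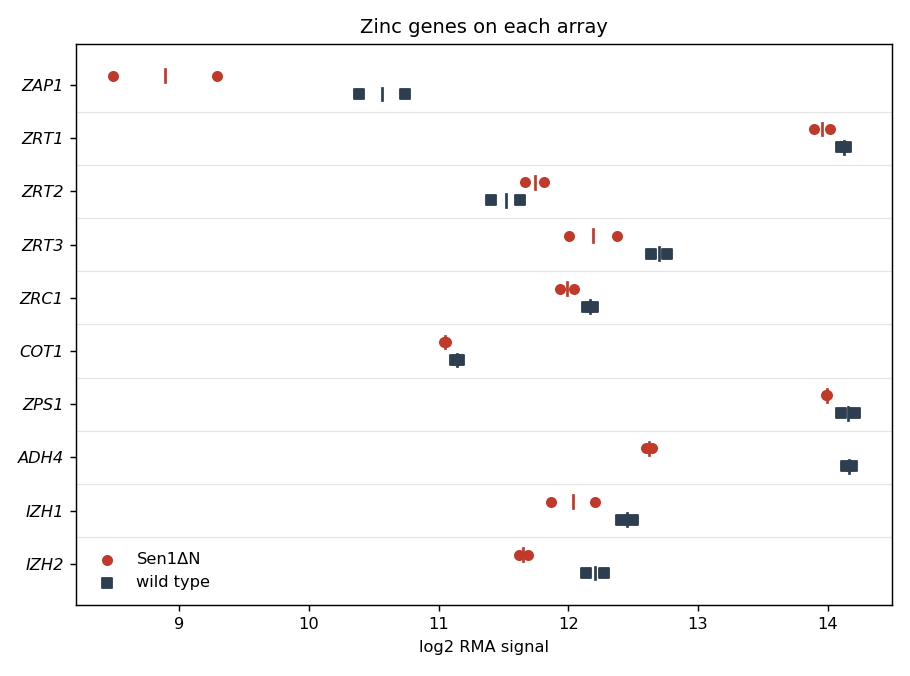
The x axis gives the log2 RMA signal and each row is 1 gene; circles are the 2 Sen1ΔN arrays, squares the 2 wild-type arrays and short vertical lines the strain means. In 9 rows both Sen1ΔN circles lie left of both wild-type squares, and in the ZRT2 row both lie right of them.

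The arrays and strains were checked first. The median signal of the yeast genes lay between 10.51 and 10.53 on every array, and the background, taken as the 95th percentile of the fission yeast (S. pombe) probe sets, lay between 5.23 and 5.36. Every value of the 10 zinc genes lay above it. The 5 MATa-specific genes examined all fell and the 4 MATα-specific genes all rose, which matches the mating types on the labels. The marker genes HIS3 and LEU2, for histidine and leucine synthesis, are labelled with a different mutant allele in each strain and gave unequal signals. HIS3 had 6.36 and 5.91 in Sen1ΔN, against 11.93 and 11.94 in the wild type. LEU2 had 12.17 and 12.21 in Sen1ΔN, against 6.01 and 6.07 in the wild type. The signals of the other marker genes are not given here. The SEN1 transcript had signals of 12.01 and 12.17 in Sen1ΔN, against 10.66 and 10.57 in the wild type. Where its probes lie relative to the missing N-terminal part is not known, so this is no check of the truncation. On the Sen1ΔN arrays the 5′ ends of control transcripts were weaker relative to their 3′ ends. The 3′ minus 5′ difference of 6 of 6 usable yeast controls was larger there, by a median of 2.38 log2. Gene length also moved with the strain difference, and for the 10 zinc genes and the related lists the differences after removal of that trend are given where they change a call or a direction. The part of the 3′ to 5′ shift in the zinc gene results was not tested. With 2 arrays on each side, the smallest two-sided p of an exact permutation test is 0.33, and smaller limma p-values draw on the variance pooled over genes.

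ZAP1 (YJL056C), the regulator, had log2 signals of 9.29 and 8.49 on the Sen1ΔN arrays, against 10.38 and 10.74 on the wild-type arrays. Both Sen1ΔN values lay below both wild-type values, and the Sen1ΔN arrays stood further apart from each other than for any other gene of the set. The difference was -1.67 log2 (limma SE 0.29 with 2 arrays in each strain, limma adjusted p = 0.00570), a level in Sen1ΔN of 0.314 times the wild type. It was -1.27 without Sen1ΔN replicate 2 and -2.07 without Sen1ΔN replicate 1. In the unmoderated linear model the call was lost (adjusted p = 0.0983). ZAP1 is the longest of the 10 genes, at 2643 bp, and removal of the length trend left a difference of -1.63.

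ADH4 (YGL256W) encodes an alcohol dehydrogenase of another protein family than the main fermentative enzyme Adh1, and its gene is induced by Zap1 in zinc-poor cells. Its signal was 12.65 and 12.60 in Sen1ΔN, against 14.14 and 14.18 in the wild type. The strains were separated by far more than the replicates, which lay within 0.05 log2 of each other in both strains. The difference was -1.54 (SE 0.07, limma adjusted p = 0.000132), or 2.91-fold lower in Sen1ΔN, and it passed under all 12 alternatives, with values from -1.56 to -1.33. Among all 5449 genes, 4.77% had a more negative difference than ADH4 and 3.93% a more negative one than ZAP1.

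The uptake genes did not follow ZAP1 and ADH4 in size. ZRT1 (YGL255W) had signals of 14.02 and 13.90 in Sen1ΔN, against 14.11 and 14.14 in the wild type. Both Sen1ΔN arrays were lower, but the difference of -0.17 did not pass (SE 0.07, 95% confidence interval -0.36 to 0.03, limma adjusted p = 0.101). ZRT2 (YLR130C) had signals of 11.81 and 11.67 in Sen1ΔN, against 11.40 and 11.63 in the wild type. It was the one gene of the set with a positive difference, 0.22 (SE 0.11, 95% confidence interval -0.05 to 0.50), which did not pass (limma adjusted p = 0.118). With quantile normalization the ZRT2 difference was 0.32 and passed (adjusted p = 0.0352), and with the length trend removed it was 0.43 and passed (adjusted p = 0.0180). ZRT1 passed with quantile normalization, with trended and robust moderation, and without Sen1ΔN replicate 1, at adjusted p of 0.0368, 0.0175 and 0.0494. With the length trend removed its difference turned to 0.04, with adjusted p = 0.641.

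**Figure D2:**
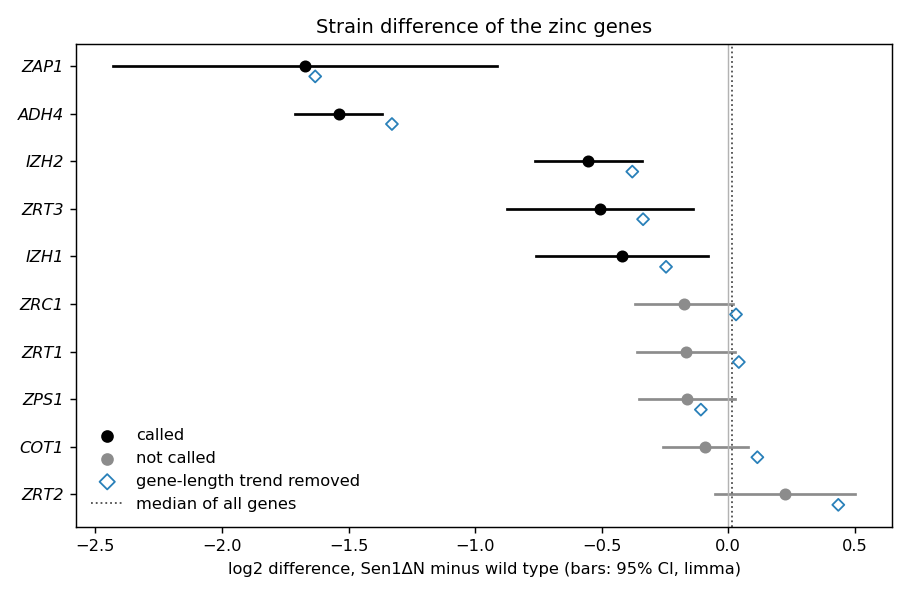
The x axis gives the log2 difference, Sen1ΔN minus wild type, with 95% confidence intervals from limma; black points passed the test, grey points did not, and open diamonds show the difference after removal of the gene-length trend. ZAP1 and ADH4 lie below -1, IZH2, ZRT3 and IZH1 between -0.55 and -0.42, and the intervals of the other 5 genes span 0.

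Vacuolar storage involves an exporter and a pair of importers, and of these only the exporter gene passed the test. ZRT3 (YKL175W), for release of stored zinc, had signals of 12.38 and 12.01 in Sen1ΔN, against 12.63 and 12.76 in the wild type. Its difference was -0.51 (SE 0.14, limma adjusted p = 0.0267). The call held in 6 of 12 alternatives and was lost, for example, with the replicate number as a block (adjusted p = 0.0690), with quantile normalization (0.0584) and with the length trend removed (0.0870). ZRC1 (YMR243C), for zinc import into the vacuole, had signals of 12.05 and 11.94 in Sen1ΔN, against 12.14 and 12.19 in the wild type. COT1 (YOR316C), whose product also carries cobalt, had signals of 11.06 and 11.04 in Sen1ΔN, against 11.12 and 11.16 in the wild type. The Sen1ΔN arrays were the lower ones for both genes, by -0.17 for ZRC1 (95% confidence interval -0.37 to 0.02, limma adjusted p = 0.0885) and -0.09 for COT1 (-0.26 to 0.08, limma adjusted p = 0.254). Neither passed in any of the 12 alternatives, and with the length trend removed their differences turned to 0.03 and 0.11. The lower ends of both intervals lie above the differences of ZAP1 and ADH4.

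The signals of 3 pairs of the zinc genes were compared within each array. The log2 ratio of ADH4 to ZRT1 was -1.37 and -1.29 on the Sen1ΔN arrays, against 0.04 and 0.05 on the wild-type arrays, a change of -1.37. For ZRT3 over ZRC1, vacuolar export over import, it was 0.33 and 0.07 in Sen1ΔN, against 0.49 and 0.57 in the wild type, a change of -0.33. For ZRT2 over ZRT1, low-affinity over high-affinity uptake, it was -2.21 and -2.23 in Sen1ΔN, against -2.70 and -2.51 in the wild type, a change of 0.39. The arrays of the strains did not overlap in any of the 3 ratios. The exact two-sided permutation p was 0.33 for each, also after Benjamini-Hochberg adjustment over the 3 ratios, which is the smallest this design allows. They are ratios of probe signals and do not say which gene had more transcript, and the ZRT1 signal in 2 of them lay near the top of the scale.

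ZPS1 (YOL154W) encodes a cell-surface protein induced in zinc-poor cells. Its signals were 14.00 and 13.99 in Sen1ΔN, against 14.10 and 14.21 in the wild type. The difference of -0.16 (SE 0.07, 95% confidence interval -0.35 to 0.03) did not pass in the limma fit (adjusted p = 0.0992) and passed with quantile normalization (0.0367) and with trended and robust moderation (0.0148). IZH1 (YDR492W) and IZH2 (YOL002C) encode membrane proteins related to adiponectin receptors that influence zinc homeostasis. IZH2 had signals of 11.69 and 11.62 in Sen1ΔN, against 12.14 and 12.28 in the wild type, a difference of -0.55 (SE 0.08, limma adjusted p = 0.00325). It passed under all 12 alternatives. IZH1 had signals of 12.20 and 11.87 in Sen1ΔN, against 12.50 and 12.41 in the wild type, a difference of -0.42 (SE 0.13, limma adjusted p = 0.0373). The strains did not overlap for either gene, but IZH1 held its call in 7 of 12 alternatives and lost it with quantile normalization (adjusted p = 0.0990) and with the length trend removed (0.150).

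Over the set, the arrays of the strains did not overlap in any of the 10 genes, with Sen1ΔN lower in 9 and higher in 1. Over all genes, Sen1ΔN was lower without overlap in 42.9% and higher without overlap in 44.3%, so separation of the arrays was common in this comparison.

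ZRT1 and ZPS1 lay close to the top of the signal scale, as ADH4 did in the wild type. On every array the ZRT1 signal was between 0.55 and 0.67 log2 below the brightest probe set, and that of ZPS1 between 0.53 and 0.64. The part of the signal scale in their small differences was not tested. ADH4 was as bright in the wild type, at 14.14 and 14.18, and lay lower on the scale in Sen1ΔN, at 12.65 and 12.60.

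**Figure D3:**
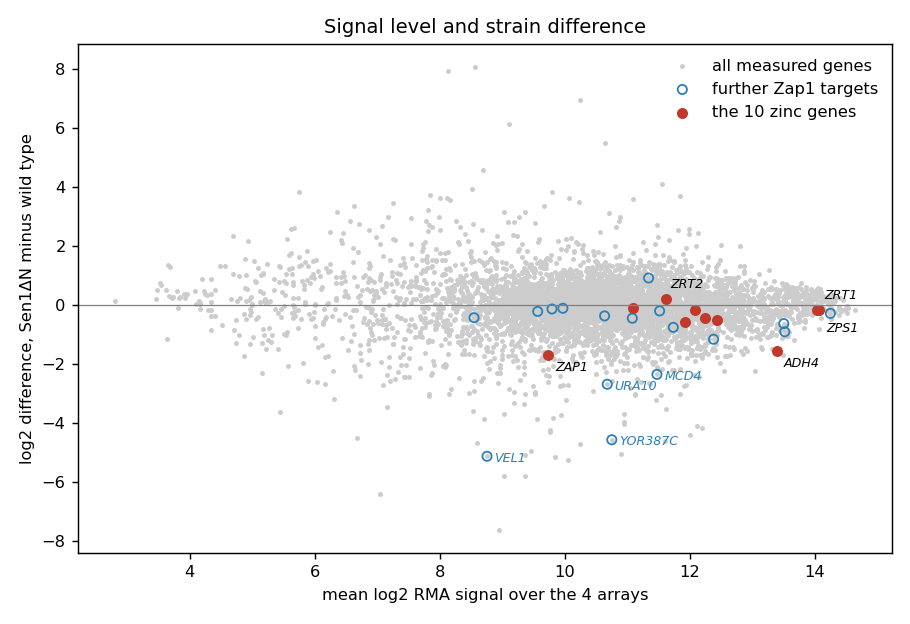
The x axis gives the mean log2 RMA signal over the 4 arrays and the y axis the log2 difference, Sen1ΔN minus wild type, for all 5449 genes (grey), 17 further Zap1 targets (open blue circles) and the 10 zinc genes (red). ZRT1 and ZPS1 lie at the right end at -0.17 and -0.16, ADH4 lies at -1.54, and VEL1 and YOR387C lie below -4.

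Other genes reported as Zap1 targets were taken from a list of 17 written from general knowledge. Of these, 12 fell and 1 rose in Sen1ΔN, 5 of the falls were at least 2-fold, and the median was -0.44. Over all genes 34.4% fell, 35.3% rose, 11.3% fell at least 2-fold and the median was 0.01, and the share called was 76.5% in the list and 69.7% over all genes. VEL1 (YGL258W), a zinc-depletion-induced gene whose function is not established, had signals of 6.14 and 6.25 in Sen1ΔN, against 11.34 and 11.30 in the wild type, a difference of -5.12 (SE 0.07, limma adjusted p = 1.42e-05). YOR387C, a close copy of VEL1, had signals of 8.37 and 8.57 in Sen1ΔN, against 13.06 and 13.02 in the wild type, a difference of -4.56 (SE 0.09). In both genes the Sen1ΔN arrays lay far below the wild-type arrays. Because the sequences are so alike, their probe sets may not tell them apart, and the sequences of these loci in the Sen1ΔN strain were not analysed here.

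URA10, the minor orotate phosphoribosyltransferase gene of pyrimidine synthesis, fell to 9.35 and 9.33 in Sen1ΔN, against 12.00 and 12.05 in the wild type (difference -2.68, SE 0.07). MCD4, needed to build the membrane anchor of cell-surface proteins, fell to 10.33 and 10.27 in Sen1ΔN, against 12.72 and 12.58 in the wild type (difference -2.34, SE 0.08). The cell wall gene PST1 fell by 1.16. UTH1, a cell wall gene of the SUN family, ATG41, and PEP4, the gene of vacuolar proteinase A, fell by 0.90, 0.75 and 0.62. The ATG41 call was lost with the replicate number as a block (limma adjusted p = 0.0757). NRG2 and TSA1 fell by 0.44 and 0.28. KTI12, which acts with the Elongator complex, was the one that rose, by 0.92 (SE 0.07), with signals of 11.84 and 11.77 in Sen1ΔN, against 10.88 and 10.89 in the wild type. DPP1, RAD27, MNT2 and EKI1 did not pass, with differences between -0.21 and -0.10. The unmoderated linear model called 7 of the 17 lower, and the calls of ATG41, NRG2, TSA1, CKI1 and RTC4 were lost. With the length trend removed CKI1, a choline kinase gene, differed by -0.24 and RTC4 by -0.21, and both lost their call (limma adjusted p = 0.0508 and 0.0806). The differences of RAD27, MNT2 and EKI1 lay near 0 then, at 0.00, 0.01 and 0.05.

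Of 7 other genes of zinc transport or of the IZH family, 6 fell and IZH4 did not pass, where 69.7% of all genes were called and 34.4% fell. The phosphate transporter gene PHO84, whose product can also carry zinc, fell by 5.79, to signals of 6.49 and 6.46 in Sen1ΔN, against 12.21 and 12.31 in the wild type. YKE4, an endoplasmic reticulum zinc transporter gene, fell to 8.85 and 8.98 in Sen1ΔN, against 10.70 and 10.77 in the wild type (difference -1.83, SE 0.08). The other falls were small, with differences of -0.58 for FET4, a low-affinity iron transporter gene under Zap1 and iron control, -0.49 for ZRG17, -0.38 for IZH3 and -0.19 for MSC2. With the length trend removed FET4, IZH3 and MSC2 lost their call, at differences of -0.44, -0.23 and -0.13 (limma adjusted p = 0.0634, 0.163 and 0.134), which left 3 of the 7 called lower. The count was also 3 with the replicate number as a block, and 2 without wild type replicate 2. ZRG17 and MSC2 encode partners in zinc transport into the endoplasmic reticulum.

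**Figure D4:**
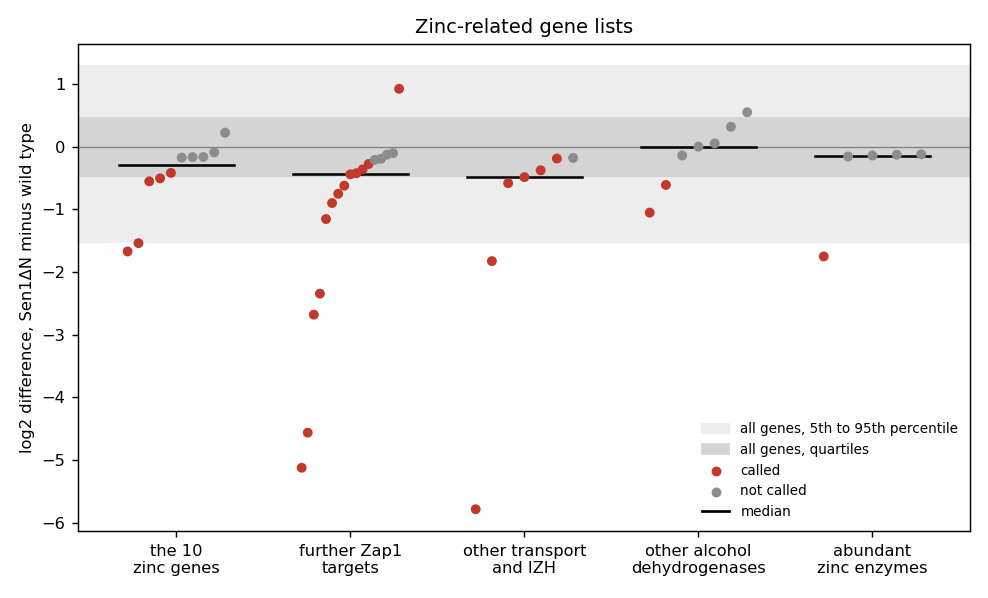
The y axis gives the log2 difference, Sen1ΔN minus wild type, for each gene of the 10 zinc genes and 4 related lists; red points passed the test, grey points did not, black lines are list medians, and grey bands show the quartiles and the 5th to 95th percentiles of all genes. The medians lie at -0.30, -0.44, -0.49, 0.00 and -0.14 from left to right, and PHO84, VEL1 and YOR387C lie below -4.

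Alcohol dehydrogenases other than ADH4 did not share its size of change. In zinc-poor cells Zap1 is known to lower ADH1 and ADH3, the genes of the main cytosolic and the mitochondrial zinc-dependent enzyme. ADH1 had signals of 14.19 and 14.23 in Sen1ΔN, against 14.33 and 14.37 in the wild type, and its difference of -0.14 did not pass (95% confidence interval -0.31 to 0.03, limma adjusted p = 0.113). ADH3 had signals of 13.10 and 12.93 in Sen1ΔN, against 12.57 and 12.83 in the wild type. The arrays did not overlap, and the difference of 0.32 did not pass (0.01 to 0.63 as the unadjusted interval, limma adjusted p = 0.0634), though it passed with quantile normalization at 0.48 (adjusted p = 0.0106). Of the 7 other alcohol dehydrogenase genes, 2 fell, ADH5 by 1.05 (SE 0.19) and SFA1, the formaldehyde dehydrogenase gene, by 0.61 (SE 0.07), against 34.4% of all genes called lower and 69.7% called in all. ADH2, the glucose-repressed isoform, had a difference of 0.55, which did not pass (limma adjusted p = 0.120). ADH6 and ADH7 differed by 0.00 and 0.05 and did not pass. With the length trend removed 3 of the 7 were called higher, ADH3 at 0.53, ADH6 at 0.20 and ADH7 at 0.26 (limma adjusted p = 0.0137, 0.0467 and 0.0273), and ADH1 turned to 0.06 without passing.

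Of 5 genes of zinc-binding enzymes, ADH1 included, only PMI40 passed, where 69.7% of all genes did. PMI40, the mannose-6-phosphate isomerase gene, fell to 11.55 and 11.56 in Sen1ΔN, against 13.31 and 13.31 in the wild type (difference -1.75, SE 0.06, limma adjusted p = 9.7e-05). The superoxide dismutase gene SOD1, the aldolase gene FBA1 and the methionine synthase gene MET6 had differences of -0.16, -0.13 and -0.12. With trended and robust moderation 4 of the 5 were called lower. With the length trend removed SOD1 passed at -0.44 (limma adjusted p = 0.00312) and FBA1 turned to 0.07 without passing.

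ZRT1 and ADH4 are neighbours on chromosome VII, and MNT2 and VEL1 follow ADH4 in the same stretch, so 4 genes of the Zap1 lists lie side by side. Their differences ran from -0.17 for ZRT1 and -1.54 for ADH4 through -0.13 for MNT2 to -5.12 for VEL1. MNT2, a mannosyltransferase gene, had signals of 9.84 and 9.63 in Sen1ΔN, against 9.77 and 9.96 in the wild type, and the strains overlapped. Of the 10 measured genes around the ZRT1 and ADH4 pair, 5 on each side with MNT2 and VEL1 among them, 4 fell and 1 rose, which is 50% called against 69.7% of all genes. YGL258W-A, which fell, was above background on 1 of the 4 arrays. Among the genes that did not pass, YGL262W was above background on 1 array and YPS5 on 0. With the length trend removed RTG2 passed at 0.26 (limma adjusted p = 0.0217). FZF1, the gene of a sulfite-responsive transcription factor next to ZRT1, fell by 1.08 (SE 0.08), and HFM1, a meiotic helicase gene, rose by 1.03 (SE 0.08).

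ZPS1 lies near the end of chromosome XV. Of the 10 measured genes around it, 7 rose, 2 fell and DCP1 did not pass, where 35.3% of all genes rose and 34.4% fell. YOL159C-A rose by 0.81, but with the length trend removed its difference was 0.23 and did not pass (limma adjusted p = 0.273). ENB1, the gene of a siderophore transporter, had signals of 10.86 and 10.66 in Sen1ΔN, against 7.67 and 7.89 in the wild type (difference 2.98, SE 0.12). FRE7, a metalloreductase gene next to ZPS1, had signals of 8.20 and 7.98 in Sen1ΔN, against 5.82 and 6.20 in the wild type (difference 2.08, SE 0.16). HPF1, a cell wall mannoprotein gene on the other side of ZPS1, rose by 1.07, and YOL155W-A rose by 3.17. The hexose transporter gene HXT11, which has a close copy elsewhere in the genome, differed by 2.21 and lay at background on 1 of the wild-type arrays. GRE2, a stress-induced reductase gene, fell by 1.38. ZPS1 itself, at -0.16, differed less than 9 of these 10 neighbours.

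**Figure D5:**
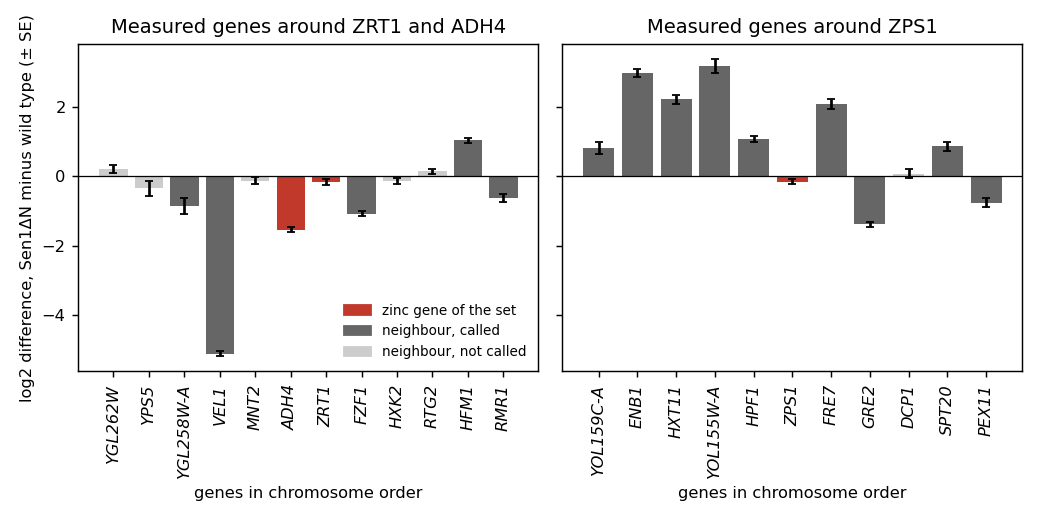
Bars give the log2 difference, Sen1ΔN minus wild type, with the SE from limma, for measured genes in chromosome order around ZRT1 and ADH4 (left) and around ZPS1 (right); zinc genes of the set are red, called neighbours dark grey and other neighbours light grey. VEL1 at -5.12 and ADH4 at -1.54 stand beside MNT2 and ZRT1 near 0, and most bars around ZPS1 point up.

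Directly next to the 10 genes lay 18 other measured genes, of which 7 rose, 5 fell and 6 did not pass. The share called, 66.7%, was close to the 69.7% of all genes. Both neighbours of ZAP1, IKS1 and TIM54, had differences of -0.02 and 0.00 and did not pass. Beside IZH2, the neighbours PFA4 and PHO80 rose by 0.23 and 0.85, and beside IZH1, PKH1 and MZM1 rose by 0.24 and 0.50. TPO5, a polyamine transporter gene next to ZRT3, fell by 1.22, SFG1, a transcription factor gene next to COT1, fell by 3.33, and YMR244W next to ZRC1 fell by 1.09.

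The genes whose 4 array values, centred on their own mean, lay nearest to those of ZRT1 were STE13, CFT1 and RRT2, at a root mean square distance of 0.0064, 0.0072 and 0.0145 log2 over the 4 arrays. They were chosen by this likeness, so their strain differences, from -0.19 to -0.17, are a description.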

How the data were processed

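The deposited values are log2 signals per probe set, made by the authors with RMA in Affymetrix Expression Console, per the submitters' processing notes. The arrays that entered one RMA run are not named, and probe positions were not used here. Of 10928 probe sets, 5498 named 1 yeast gene by the platform annotation, updated through the R64 RefSeq table. Probe sets were averaged per gene, giving 5449 genes. Strain differences were fitted with limma 3.58.1 in R 4.3.3 (lmFit and eBayes, 2 residual degrees of freedom), two-sided, with Benjamini-Hochberg adjustment over all genes. The fit was also run on simulated data with few changed genes and no length trend. That setting differs from these data, so the run is no check of the calls given here. The p-values draw on the spread between 2 arrays per strain and on the variance pooled over genes. The number of arrays limits the precision. The 12 alternatives were omission of each of the 4 arrays, the replicate number as a block, quantile normalization, median centring, genes above background on 2 or more arrays only, trended and robust moderation, an unmoderated linear model, the brightest probe set per gene, and removal of the gene-length trend. That trend was a loess of the difference on log10 gene length (span 0.5, degree 1). The members, lists and tests were chosen with earlier results of these data known. Named were all 10 zinc genes and SEN1. Of each list, the called genes with at least a 2-fold change or the up to 4 largest differences were named. Also named were neighbours called with at least a 2-fold change and the 3 genes nearest to ZRT1. Smaller differences of other list members and neighbours were named after their values were seen. The marker genes HIS3 and LEU2 were named outside this rule. The list gene ICY2 was matched to ATG41 by synonym.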

Additional observations from a re-analysis of the deposited data

How the results depend on the processing

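ADH4 and IZH2 kept their call under all 12 alternatives and ZAP1 under 11. Over all genes the unmoderated linear model called 2445, 1209 of them higher and 1236 lower, against 3796, 1921 and 1875; it called 2 of the 10 zinc genes, both lower, 7 further Zap1 targets lower, 1 other alcohol dehydrogenase lower and 2 zinc enzymes lower. With the length trend removed 3 zinc genes were called lower and 1 higher, at a median of -0.18, with 3 other transport and IZH genes lower, 3 other alcohol dehydrogenases higher and 2 zinc enzymes lower. Quantile normalization called 1 zinc gene (ZRT2) and 1 other alcohol dehydrogenase higher and 2 zinc enzymes lower. Trended and robust moderation called 7 of the 10 zinc genes, all lower, with 1 other alcohol dehydrogenase higher and 4 zinc enzymes lower. Leaving out each array gave 3 to 6 zinc genes called, all lower, with a median from -0.41 to -0.20, 2 to 4 other transport and IZH genes lower, and 0 to 1 other alcohol dehydrogenases higher. The replicate numbers are shared between strains, and deviations of same-numbered arrays correlated at r = -0.034 across genes. This single correlation cannot tell whether same-numbered arrays shared a day or a batch. With the replicate block 4 of the 10 zinc genes, 3 other transport and IZH genes and 3471 genes in all were called. Median centring, the background filter and the brightest probe set changed no call of the 10 zinc genes. The number of arrays limits the precision. The cause of these changes was not tested.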
